A study of Mus musculus with 22 samples.

Results

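Stem cells (Stem) and tuft cells (Tuft), both sorted from the epithelium of mouse colon crypts, were compared by the reads counted on each gene. Of the 22 libraries of the series, 8 entered as the objects of the comparison, 3 of Stem and 5 of Tuft. They were chosen by the title of each library alone, so that no measured value decided which were used, and all genes of the count files were kept. The mice of both groups were wild type C57BL/6N males of 5 to 7 weeks that had received no treatment, and the colon was taken from the caecum to the rectum. Stem cells were live cells that stained for Epcam and lacked Cd31, Cd45 and Ckit, with the highest Cd44 and low Cd24. Tuft cells were live cells that stained for Epcam and Ckit, were high in Cd24 and lacked Cd31 and Cd45. By the methods of the study, a Stem library came from 1 mouse and a Tuft library from several pooled mice, and replicates came from independent mice and sorts, so that sorts are the replicates and single cells were not resolved. The comparison asks which genes set the dividing cell at the crypt base apart from a mature chemosensory cell that descends from it.

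Colon stem cells sit at the base of the crypt, where Wnt ligands from the underlying tissue keep them dividing. Lgr5, a receptor for R-spondins, marks them, and Notch signals between neighboring cells keep them from the secretory fate. Tuft cells are rare cells with a brush of stiff microvilli. They sense the gut lumen through a pathway shared with taste buds, in which a G protein-coupled receptor acts through gustducin and phospholipase C beta 2 to open the cation channel Trpm5. They also release interleukin 25, prostaglandins, leukotrienes and acetylcholine. Pou2f3 is the transcription factor without which tuft cells do not form. Mature tuft cells have largely left the cell cycle.

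Reads counted on genes came to 19900282 to 22462518 in the Stem libraries and 9930648 to 20892532 in the Tuft libraries. Reads that overlapped no counted gene feature made up 45.2 to 48.5% in Stem, 59.5 to 68% in Tuft 1 to Tuft 4 and 43.4% in Tuft 5. Introns and the space between genes were not told apart among them. Olfactory and vomeronasal receptors and other gene families taken as mostly silent in the colon served as a measure of background. Of these genes 1 had a mean of at least 50 normalized counts, with a log2 fold change of 7.28 for Tuft over Stem. Whether some members are transcribed in tuft cells was not tested. They took 54.4 to 93.2 CPM (counts scaled to a common library total) in Stem, against 696, 1510, 1240, 1230 and 183 in Tuft 1 to Tuft 5. The background expected on each gene of a given length was computed from these families, and a gene is marked below where it reached 20% of the mean of the higher group. Spearman's rho across genes, which are not independent replicates, was 0.902 to 0.921 between Tuft 5 and the Stem libraries, against 0.838 to 0.893 for the other Tuft libraries. Between Tuft 5 and those libraries it was 0.887 to 0.954, with Tuft 4 the nearest, and Tuft 1 had the lowest values within Tuft, at 0.87 to 0.894. Within a cell type rho was 0.925 to 0.945 for Stem and 0.87 to 0.969 for Tuft. The count files of Tuft are named in a form that those of Stem do not share, so that a difference in handling and the cell type cannot be told apart.

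Of 22781 genes tested, 1784 (7.83%) were called higher in Tuft and 964 (4.23%) were called lower, all relative to Stem. A call needed a Benjamini-Hochberg adjusted p under 0.01 in edgeR's quasi-likelihood test and 50 or more normalized counts on average over the 22 libraries. Of the 13188 genes with that mean, 13.5% were called higher and 7.31% lower. The groups did not overlap for 2468 of the 2748 called genes, 1540 of them higher and 928 lower. A call itself favors genes whose groups stand apart, so this count, and each lack of overlap below, is no separate evidence. The share without overlap over all tested genes is not given here. Increases were larger than decreases, since 1106 genes rose at least 8-fold and 11 fell by as much. Among the called higher genes with a transcript length, 311 of 1778 reached the mark for background. For called lower genes the mark sets the low background of Stem against the Stem mean. That none reached it was nearly fixed in advance. Background also counts toward the Tuft level of called lower genes and was not subtracted. With the 2 Tuft libraries of most background, Tuft 2 and Tuft 3, left out, 1119 genes were called higher and 382 lower. With edgeR's older fit the counts were 1006 and 462. Leaving out Stem 2 or Stem 3 gave 1007 and 1139 called higher. The median log2 fold change over genes with that mean was -0.09 with the scaling used here, 0.20 with DESeq2 size factors and 0.06 with library totals, and no called gene turned its direction under any of them. In bulk RNA, fewer cells of a type and less RNA per cell cannot be told apart. The gene groups below were chosen with earlier results of these data known, so that their counts describe the groups and are no independent evidence of a direction.

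**Figure D1:**
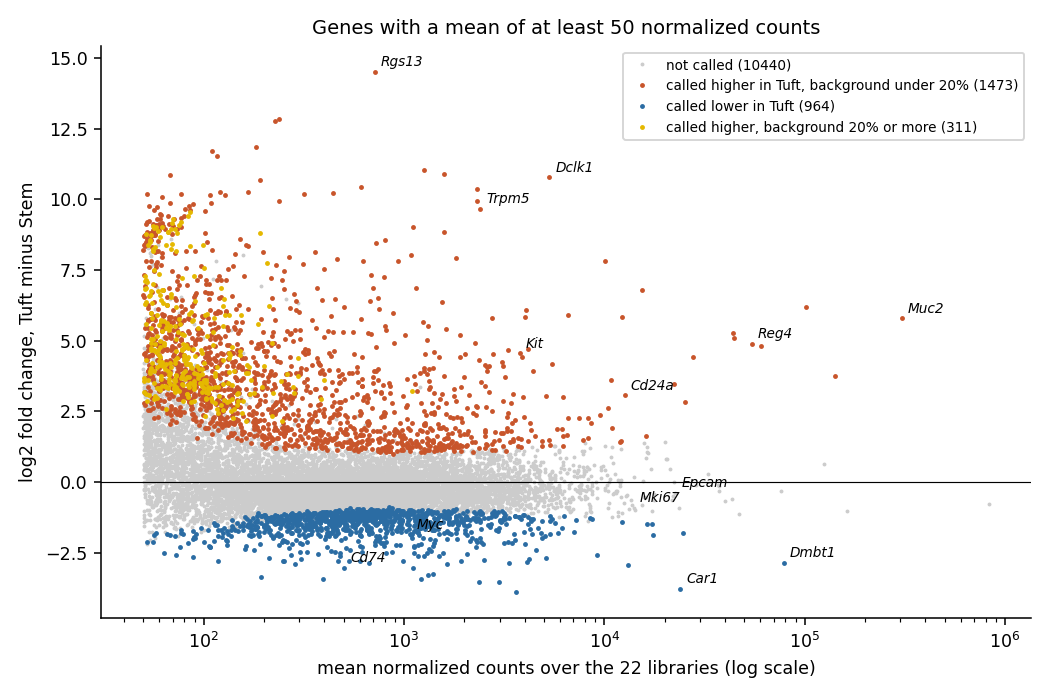
Log2 fold change of Tuft over Stem (vertical axis) against the mean normalized count of the 22 libraries (horizontal axis, log scale), 1 point a gene with a mean of at least 50. Points are colored by call, with the 311 called higher genes whose background reached 20% in yellow. The 1473 other called higher genes reach far larger changes than the 964 called lower genes.

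The genes of tuft identity rose together. Of the 10 transcription factors listed for tuft cells, 7 were called higher and none lower, and the same counts were found with Tuft 5 left out, without the 2 libraries of most background and with the older fit. Normalized counts of Pou2f3 (chr9:43123939-43210369) were 33.7, 0 and 0.674 in Stem 1 to 3 and 1842, 1333, 2346, 3852 and 2393 in Tuft 1 to 5. All 5 Tuft libraries lay far above Stem, of which Stem 1 alone held more than 1 normalized count (log2 fold change 7.81 ± 0.58, adjusted p = 1.51e-16, where ± gives the SE of the fit). Spib, an Ets factor that the immune system also uses, was at 0, 0.64 and 4.04 in Stem and 2246, 1453, 2927, 3198 and 2299 in Tuft (log2 fold change 10.45 ± 0.69, adjusted p = 1.42e-18). The homeobox gene Hmx3 had no read in Stem and was at 1418, 420.2, 739, 1072 and 698 in Tuft, at least 1260-fold higher by the floor of 3 counts set over the group (adjusted p = 2.13e-15). Gfi1b, a zinc finger repressor, was also at 0 in every Stem library and ranged from 29.3 in Tuft 1 to 413 in Tuft 3, at least 337-fold higher (adjusted p = 1.36e-07). Atoh1, the factor that starts the secretory fate as a whole, was present in Stem at 194, 174 and 265 and reached 4147, 3537, 2903, 2522 and 5347 in Tuft (log2 fold change 4.13 ± 0.48, adjusted p = 1.04e-09). Sox4, Sox9 and Ascl2, which the list also holds, were not called.

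The taste pathway rose in part. Of its 14 genes 6 were called higher and none lower, and 6 of the other 8 had a mean under 50 counts and could not be called. Trpm5 (chr7:143069153-143094642), the channel that depolarizes the cell, was at 12.2, 0 and 24.3 in Stem and at 10537, 5506, 9379, 14576 and 8641 in Tuft (log2 fold change 9.65 ± 0.64, adjusted p = 1.77e-18). Plcb2, the phospholipase upstream of it, was at 6.12, 4.48 and 13.5 in Stem and 4218, 2205, 3412, 6919 and 4576 in Tuft (log2 fold change 9.03 ± 0.57, adjusted p = 8.65e-20). Neither gene's groups came near each other, and for both Tuft 2 was the lowest and Tuft 4 the highest Tuft library. Gnat3, the alpha subunit of gustducin, had no read in Stem and 918, 519, 948, 1267 and 942 normalized counts in Tuft, at least 1330-fold higher (adjusted p = 1.36e-15). Its partner Gng13 was likewise at 0 in Stem and at 43.9, 143, 131, 266 and 237 in Tuft, at least 238-fold higher (adjusted p = 7.22e-08), but stayed uncalled because its mean over all libraries was under 50. Itpr3, the calcium release channel of taste cells, gave a log2 fold change of -0.60 (adjusted p = 0.196), while its relative Itpr2 was called higher (log2 fold change 2.63 ± 0.35, adjusted p = 4.5e-08). Receptors differed. Ffar2, which senses short chain fatty acids, was at 154, 50.6 and 212 in Stem and 1623, 666, 1359, 507 and 1789 in Tuft (log2 fold change 3.12 ± 0.40, adjusted p = 1.49e-08), lowest in Tuft 4. The sweet and umami receptor gene Tas1r3 was not called (log2 fold change 1.18, adjusted p = 0.042), and Sucnr1, the succinate receptor of tuft cells in the small intestine, was at 0 in Stem with a mean of 122 ± 43.1 (SD, n = 5) in Tuft, under the minimum mean over the 22 libraries.

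Surface and cytoskeletal markers held 12 called higher genes of 15, with none lower. Dclk1 (chr3:55242364-55539068), a microtubule-associated kinase and the most used tuft marker, was at 12.2, 21.1 and 3.37 in Stem and at 23983, 11726, 23205, 31011 and 19591 in Tuft (log2 fold change 10.77 ± 0.69, adjusted p = 5.03e-19). Sh2d7, an adaptor with an SH2 domain, was at 6.88, 0 and 3.37 in Stem and 6142, 3595, 6359, 9542 and 6275 in Tuft (log2 fold change 10.90 ± 0.69, adjusted p = 8.65e-20). For both of these genes the order of the outer Tuft libraries was the same, with Tuft 4 highest and Tuft 2 lowest. Avil, which bundles the actin of the tuft microvilli, rose from a mean of 28.9 ± 17.9 to 7248 ± 2906 (SD, n = 3 and 5, log2 fold change 7.93 ± 0.53, adjusted p = 4.33e-18). The keratin Krt18 rose by less (log2 fold change 1.64 ± 0.45, adjusted p = 0.00528) and Krt8, Vil1 and Fscn1 were not called. Estimated background was at most 1.86%, in Gfi1b, of the Tuft mean for the called genes named so far.

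**Figure D2:**
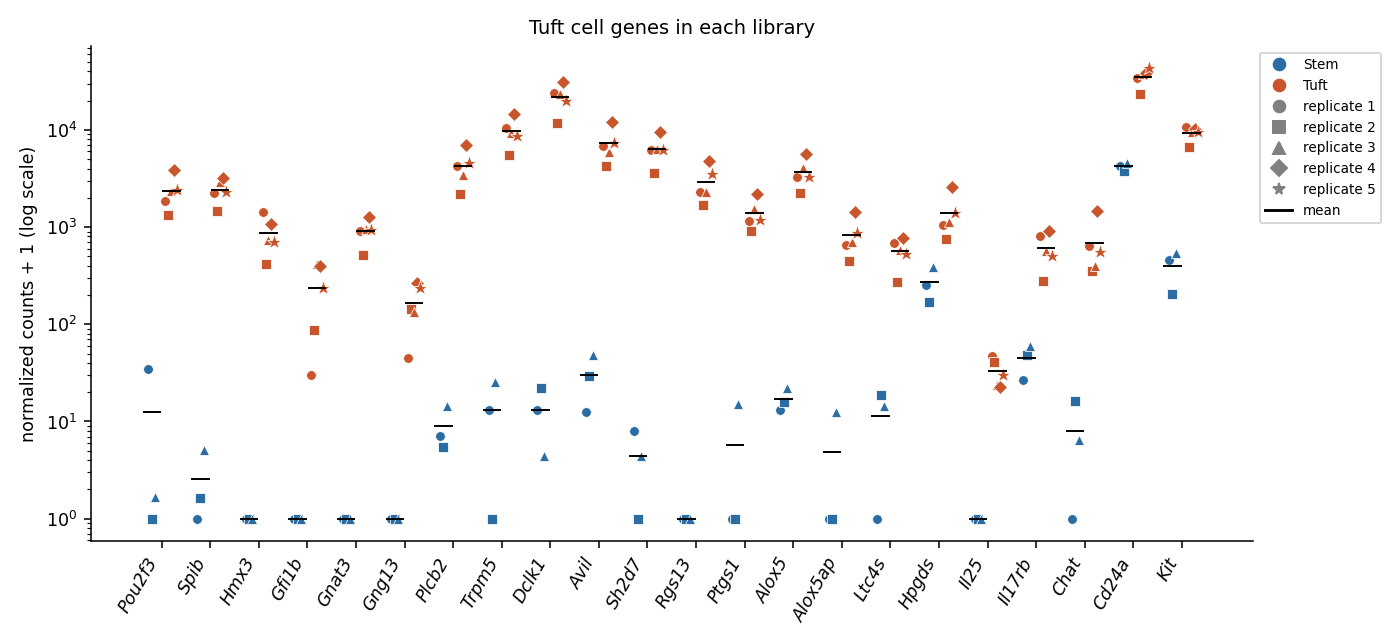
Normalized counts plus 1 (log axis) of 22 tuft genes in each of the 3 Stem and 5 Tuft libraries, with a line at each group's mean. Stem libraries lie at or near 0 for Gnat3, Hmx3, Gng13 and Gfi1b and the groups overlap for none of the genes shown.

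Enzymes that make prostaglandins and leukotrienes rose as a chain with some weaker links. Of 15 genes 6 were called higher and 2 lower. Ptgs1, the constitutive cyclooxygenase, was at 0, 0 and 14.2 in Stem and 1152, 902, 1527, 2173 and 1190 in Tuft (log2 fold change 8.13 ± 0.61, adjusted p = 2.87e-17). Hpgds, which turns its product into prostaglandin D2, was already present in Stem at 252, 168 and 392 and was at 1045, 749.6, 1140, 2604 and 1399 in Tuft (log2 fold change 2.37 ± 0.38, adjusted p = 3e-06). Leukotriene synthesis rose from near 0. Alox5, its first enzyme, was at 12.2, 14.7 and 20.9 in Stem and 3254, 2232, 4019, 5699 and 3243 in Tuft (log2 fold change 7.83 ± 0.51, adjusted p = 1.4e-18), and its activating protein gene Alox5ap at 0, 0 and 11.4 in Stem and 648, 448, 700.2, 1433 and 864 in Tuft (log2 fold change 7.67 ± 0.63, adjusted p = 9.91e-16). Ltc4s, which makes the cysteinyl leukotriene C4, was at 0, 17.9 and 13.5 in Stem and 679.8, 274, 583, 775 and 521 in Tuft (log2 fold change 5.67 ± 0.56, adjusted p = 2.75e-12). All 5 Tuft libraries lay above Stem for the whole of this chain. The branch to leukotriene B4 went the other way, since Lta4h fell from 3476, 3622 and 3158 to 1601, 1347, 1580, 1282 and 2383 (log2 fold change -1.05 ± 0.31, adjusted p = 0.00837). Ptges2, a prostaglandin E synthase, fell from 865, 579 and 518 to 293, 207, 341, 219.7 and 313 (log2 fold change -1.24 ± 0.31, adjusted p = 0.00212). Both decreases were near the threshold. Lta4h lost its call without any 1 of Stem 1, Stem 2, Tuft 1, Tuft 2 and Tuft 3 (adjusted p 0.016 to 0.0274), and Ptges2 lost its call without Stem 1 (adjusted p 0.0307). The inducible cyclooxygenase Ptgs2 had no read in Stem and a mean of 10.4 ± 10.3 in Tuft, too low to be called and no higher than the background expected on it.

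Among the genes of type 2 immunity 3 of 13 were called higher and none lower, and all 3 were receptor subunits. Il17rb, a subunit of the receptor for interleukin 25, was at 26, 46.7 and 59.3 in Stem and 813, 275, 565, 904 and 504 in Tuft (log2 fold change 3.77 ± 0.45, adjusted p = 3.03e-09). Il13ra1 was at 567, 507 and 486 in Stem and 4597, 2804, 3554, 5792 and 4822 in Tuft (log2 fold change 3.06 ± 0.39, adjusted p = 1.36e-08), and its partner for interleukins 4 and 13, Il4ra, at 531, 324 and 411 in Stem and 1548, 1299, 1628, 1439 and 1494 in Tuft (log2 fold change 1.82 ± 0.31, adjusted p = 8.69e-06). Interleukin 25 itself was measured at low counts. Il25 had no read in Stem and 46.4, 40.4, 22.8, 21.9 and 29.3 normalized counts in Tuft, at least 46.6-fold higher (adjusted p = 0.00147), and its mean was under the minimum. The kinase Jak1 and the transcription factor Stat6 of the same pathway were not called. Chat, which makes acetylcholine, was at 0, 15.4 and 5.39 in Stem and 635, 356, 396, 1456 and 549 in Tuft, with Tuft 4 well above the others (log2 fold change 6.51 ± 0.63, adjusted p = 7.27e-13). It was the one called gene of the 5 listed for acetylcholine synthesis and release. The choline transporter Slc5a7 gave 17.1 ± 29.6 and 29 ± 27.9 (SD, log2 fold change 0.82, adjusted p = 0.507), with background at 46.1% of the Tuft mean.

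The promoters of the called higher tuft genes were searched for the octamer that POU factors such as Pou2f3 bind, spelled ATGCAAAT, on both strands. Of 47 called higher genes of the 8 lists on tuft functions, 38 had a promoter window in the RefSeq table, from 250 bases before to 50 bases after the start. The octamer stood in 3 of the 38 genes (7.89%), namely Hpgds, Il4ra and Rgs4. It stood in 2.54% of all called higher genes with a window and in 1.82% of the 16762 tested genes with a window. Hpgds and Il4ra are printed because they join a tuft function to such a match, with the octamer in capitals, read 5′ to 3′ on the strand of the gene, from RefSeq on GRCm38.p6. The window of Hpgds is chr6:65144681-65144980 on the minus strand and that of Il4ra chr7:125552021-125552320 on the plus strand. A match describes these letters and is not a measured binding site.
Hpgds: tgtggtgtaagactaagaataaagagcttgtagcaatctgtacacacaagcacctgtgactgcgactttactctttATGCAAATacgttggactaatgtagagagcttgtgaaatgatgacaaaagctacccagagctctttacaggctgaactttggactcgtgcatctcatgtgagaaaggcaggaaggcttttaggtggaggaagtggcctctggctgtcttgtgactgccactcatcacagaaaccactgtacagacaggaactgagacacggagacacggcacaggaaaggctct
Il4ra: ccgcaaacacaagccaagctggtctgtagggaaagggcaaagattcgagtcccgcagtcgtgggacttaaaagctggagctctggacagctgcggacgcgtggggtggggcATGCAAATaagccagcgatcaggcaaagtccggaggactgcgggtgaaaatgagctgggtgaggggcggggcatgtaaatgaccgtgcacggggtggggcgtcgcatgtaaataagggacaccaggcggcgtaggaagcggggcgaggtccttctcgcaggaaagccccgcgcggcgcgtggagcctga

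Of 33 heterotrimeric G protein genes, Gnat3 included, 6 were called higher, and of 21 RGS genes 9 were, with none of either group lower. Of the 33 and the 21, 23 and 15 met the minimum mean, and 13.5% of all genes with that mean were called higher. RGS proteins speed the shutdown of G protein signals. Rgs13 had no read in any Stem library and was at 2280, 1686, 2303, 4740 and 3493 in Tuft, at least 4210-fold higher (adjusted p = 3.41e-19). Rgs2 was at 8.41, 11.5 and 66 in Stem and 1090, 1215, 1254, 2409 and 2053 in Tuft (log2 fold change 5.78 ± 0.52, adjusted p = 2.97e-13). Rgs22 was at 16.8, 0 and 7.41 in Stem and 389, 472, 679, 2141 and 718 in Tuft, with Tuft 4 the highest (log2 fold change 6.83 ± 0.66, adjusted p = 1.26e-12), and Rgs16 at 50.5, 11.5 and 31.7 in Stem and 437, 337, 235, 354 and 299.5 in Tuft (log2 fold change 3.45 ± 0.48, adjusted p = 1.77e-07). All Tuft libraries lay above all Stem libraries for these genes. Gnai1, an inhibitory alpha subunit, was at 58.9, 152 and 203 in Stem and 1590, 1128, 1774, 2733 and 1598 in Tuft (log2 fold change 3.66 ± 0.37, adjusted p = 1.96e-11). Gna14, an alpha subunit of the Gq class, was at 57.4, 142 and 87.6 in Stem and 485, 367, 535, 373 and 703 in Tuft (log2 fold change 2.35 ± 0.39, adjusted p = 6.59e-06). Gnao1 rose too (log2 fold change 3.01 ± 0.65, adjusted p = 0.000441), with background at 12.4% of its Tuft mean, and Gnao1 lost its call without Stem 3 (adjusted p 0.0138). Over the libraries left out in turn, the called higher counts were 3 to 6 of the G protein genes and 6 to 10 of the RGS genes, the lowest of the G protein genes without Stem 3.

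Voltage-gated sodium and calcium channels and potassium channels held the most called higher genes on the tuft side, 46 of 131, with 4 lower. This list was also longer than any other on that side. Only 70 of its genes met the minimum mean and could be called. By share of such genes, goblet cell mucus (7 of 8), surface and cytoskeletal markers (12 of 14) and taste signaling (6 of 8) stood higher. Among all genes that met the minimum mean, 13.5% were called higher. Of the 46, 15 reached the mark for background and the called higher count was 23 without the 2 Tuft libraries of most background and 27 with the older fit. It was 22 without Stem 2 and 27 without Stem 3. Kcnma1, the large conductance channel opened by calcium and voltage, was at 178, 119 and 62.7 in Stem and 2911, 2660, 2583, 1729 and 2966 in Tuft (log2 fold change 4.44 ± 0.43, adjusted p = 4.11e-12). Kcnk6, a leak channel with tandem pores, was at 260.1, 79.4 and 91.6 in Stem and 2340, 1993, 2575, 1400 and 3083 in Tuft (log2 fold change 4.02 ± 0.42, adjusted p = 4.02e-11), and Kcnh2, of the ether-a-go-go family, at 9.94, 1.28 and 10.1 in Stem and 353, 413, 522, 579.6 and 505 in Tuft (log2 fold change 6.08 ± 0.63, adjusted p = 2.8e-11). Kcnd3, a transient outward channel, had 1 read over the Stem libraries and 442, 271, 459, 670.5 and 349.7 normalized counts in Tuft, a ratio of 1890 (95% counting interval 339 to 74700) that covers counting error only (adjusted p = 7.73e-11). Background was at most 5.18% of the Tuft mean of these 4 genes. The 4 channels that fell included the pair of the secreting crypt. Kcnq1, the basolateral channel that sustains chloride secretion, was at 4082, 3353 and 3579 in Stem and 1179, 639.8, 672, 969.5 and 1112 in Tuft (log2 fold change -2.0 ± 0.28, adjusted p = 2.51e-07). Its partner Kcne3 was at 4028, 4903 and 5427 in Stem and 1152, 1295, 1115, 975 and 2001 in Tuft (log2 fold change -1.86 ± 0.32, adjusted p = 1.49e-05), and neither overlapped between the groups. Scn2b, a sodium channel subunit, and Kcnk5, an acid-sensitive leak channel, fell as well (for Scn2b log2 fold change -1.89 ± 0.35, adjusted p = 5.26e-05, for Kcnk5 log2 fold change -1.39 ± 0.33, adjusted p = 0.00119). Scn2b lost its call by DESeq2's own test and with the older fit (adjusted p 0.04 and 0.0133), and Kcnk5 without the 2 libraries of most background (adjusted p 0.0106).

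Genes of the proteins used in the sort describe the gates and are no finding. Kit was at 454, 205 and 542 in Stem and 10787, 6619, 9450, 10330 and 9583 in Tuft. Cd24a was at 4258, 3806 and 4595 in Stem and 33985, 23553, 37270, 38614 and 42827 in Tuft. Cd44 was at 9577, 9502 and 10724 in Stem and 4600, 3425, 3953, 3879 and 5668 in Tuft, so that each was on the side that its gate asks for. Epcam, required by both gates, was at 21592, 25909 and 27334 in Stem and 16581, 16552, 14463, 17362 and 29668 in Tuft, and Tuft 5 was the one Tuft library above any Stem library. Ptprc, which encodes Cd45 and by whose protein both gates excluded cells, was at 0, 21.8 and 32.3 in Stem and at 1601, 958, 1376, 3003 and 1416 in Tuft. Pecam1, which encodes Cd31, was at 0, 0 and 2.69 in Stem and 78.1, 69.4, 44.2, 86.3 and 24.3 in Tuft, with background at 24.4% of the Tuft mean. Kitl, the ligand of Kit, ran opposite to its receptor, at 1919, 1693 and 2485 in Stem and 550.5, 538, 516, 407 and 782 in Tuft (log2 fold change -1.85 ± 0.29, adjusted p = 1.63e-06).

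Markers of other secretory cells stood beside the tuft genes in all 5 Tuft libraries. The 8 genes listed for goblet cell mucus took 0.135 to 0.214% of the counts on genes in Stem and 7.54, 8.01, 6.51, 5.58 and 6.14% in Tuft 1 to 5. By comparison SecPDG libraries, which the study names for secretory progenitors, deep crypt secretory cells and goblet cells, held 4.65 to 13.8%. Muc2, the gel-forming mucin of goblet cells, was at 17619, 9243 and 9849 in Stem and 970200, 518817, 755045, 377862 and 753527 in Tuft (log2 fold change 5.79 ± 1.25, adjusted p = 0.000433). Fcgbp, a protein of the same mucus layer, was at 9551, 5732 and 6900 in Stem and 62937, 175124, 50209, 121759 and 84946 in Tuft (log2 fold change 3.74 ± 0.93, adjusted p = 0.00202), and Fcgbp lost its call without Stem 1 (adjusted p 0.0166). Muc2 was highest in Tuft 1 and lowest in Tuft 4, whereas Fcgbp, Clca1, Retnlb and Tff3 were lowest in Tuft 1 and Tuft 3. Clca1 was at 1736, 1593 and 705 in Stem and 18236, 211309, 15658, 147272 and 94243 in Tuft (log2 fold change 6.18 ± 1.12, adjusted p = 3.24e-05), and the resistin-like gene Retnlb at 524, 338 and 389 in Stem and 5895, 44531, 7611, 32632 and 27556 in Tuft (log2 fold change 5.83 ± 0.72, adjusted p = 7.51e-09). Agr2, a disulfide isomerase needed for mucin folding, was at 2454, 1945 and 2702 in Stem and 33287, 44995, 37535, 34648 and 102312 in Tuft, highest in Tuft 5 (log2 fold change 4.42 ± 0.67, adjusted p = 1e-06). Spdef, a transcription factor of goblet cells, was at 89.5, 61.5 and 239.9 in Stem and 3324, 3927, 3841, 2913 and 5750 in Tuft (log2 fold change 4.92 ± 0.45, adjusted p = 4.99e-13). In all 7 of these 8 genes were called higher, Tff3 included (log2 fold change 3.13 ± 0.50, adjusted p = 2.98e-06), and Zg16 was not (log2 fold change 0.86, adjusted p = 0.144).

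Deep crypt secretory cells lie between colon stem cells. The study reports high Kit RNA in SecPDG and tuft cells, but Kit protein detectable by its sort in tuft cells alone. Of 8 genes listed for deep crypt secretory cells 6 were called higher in Tuft. Their summed share of the counts was 0.036 to 0.0554% in Stem and 0.552, 1.96, 0.676, 1.52 and 1.97% in Tuft 1 to 5, lowest in Tuft 1 and Tuft 3. Reg4, the lectin that defines these cells, was at 3025, 2358 and 3556 in Stem and 39137, 127127, 43545, 95715 and 136535 in Tuft (log2 fold change 4.89 ± 0.82, adjusted p = 8.42e-06). Spink4 was at 2553, 1751 and 3087 in Stem and 24309, 104158, 30916, 83232 and 180365 in Tuft (log2 fold change 5.10 ± 0.82, adjusted p = 3.76e-06). Ramp1 was at 85.7, 57 and 55.2 in Stem and 1300, 2085, 1982, 1558 and 3540 in Tuft (log2 fold change 5.01 ± 0.49, adjusted p = 6.39e-12), and Nupr1 at 364, 209 and 298 in Stem and 2516, 4122, 2915, 3062 and 11545 in Tuft (log2 fold change 4.07 ± 0.58, adjusted p = 2.27e-07). The part of goblet and deep crypt secretory RNA in the other changes of the Tuft libraries was not tested.

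Enteroendocrine genes were fewer and uneven, with 6 of 19 called higher. Of the 19, 16 met the minimum mean, and 13.5% of all genes with that mean were called higher. Chga, a granin of hormone granules, was at 135, 62.1 and 8.76 in Stem and 791, 439, 1107, 1466 and 8969 in Tuft, where Tuft 5 lay far above the rest (log2 fold change 5.28 ± 1.00, adjusted p = 6.4e-05). Tph1, which makes serotonin, was at 19.9, 0 and 6.74 in Stem and 342, 119, 219, 339 and 1380 in Tuft (log2 fold change 5.90 ± 0.98, adjusted p = 6.39e-06), and Sst at 0, 0 and 7.41 in Stem and 199, 139, 59.4, 105 and 776 in Tuft (log2 fold change 6.70 ± 0.96, adjusted p = 1.31e-07), both highest in Tuft 5. Slc18a1 was at 0, 7.04 and 8.09 in Stem and 268, 209.5, 183, 133 and 220.0 in Tuft (log2 fold change 5.24 ± 0.77, adjusted p = 3.83e-07). With Tuft 5 left out the same number, 6 genes, was called. Gcg, Pyy and Insl5, the hormones of L cells, were not called.

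Markers of other tissues held few reads, though some were called. None of 9 mast cell genes was called, and their summed normalized counts were 3.2 to 53.5 in Stem and 42.7 to 332 in Tuft. Among 18 immune genes, 5 with the minimum mean, 3 were called higher, beside 13.5% of all genes with that mean. C1qa, a complement gene known from macrophages, was at 62.7, 73.6 and 46.5 in Stem and 104, 1354, 345, 876 and 1148 in Tuft (log2 fold change 3.66 ± 0.51, adjusted p = 1.24e-07), while C1qb, its partner in the same complex, had no read in Stem and a mean of 7.39 ± 7.35 (SD, n = 5) in Tuft. The highest mean of C1qa was in SecPDG, at 1596 (range 1202 to 2161), against 765 in Tuft. In SecPDG Csf1r and Itgax had means of 7.36 and 2.32. Which cells held C1qa was not tested. Cd3e and Lyz2, defining markers of T cells and myeloid cells, had Tuft means of 23.7 ± 22.1 and 15.8 ± 8.38 (SD, n = 5), of which background made 40.7 and 19.7%. Csf1r and Itgax were also called higher, with background at 12 and 15.3% of the Tuft mean. Csf1r lost its call without Stem 2 or without Stem 3 (adjusted p 0.0147 to 0.0216), and Itgax lost its call without any 1 of Stem 1, Stem 2, Stem 3, Tuft 2 and Tuft 4 (adjusted p 0.0104 to 0.0294). The endothelial list had 5 of 7 genes called higher, at summed normalized counts of 77.5 to 194 in Stem and 336 to 995 in Tuft. Tek was at 2.29, 0 and 2.69 in Stem and 151, 128, 189.6, 205 and 88.7 in Tuft (log2 fold change 6.43 ± 1.01, adjusted p = 1.45e-06). Leaving out Stem 2 or Stem 3 left 3 endothelial and 1 immune gene called. Kdr and Cdh5 rose to Tuft means of 93.9 ± 58 and 108 ± 51.2, with background at 22.8 and 9.17%. Kdr lost its call without Stem 2 (adjusted p 0.0155), and Cdh5 lost its call without Stem 3 (adjusted p 0.0135). Of 8 genes of enteric neurons and glia 1 was called higher, Ret (log2 fold change 2.73 ± 0.60, adjusted p = 0.000556), and the 1 red blood cell gene that could be tested was not called. Of 12 stromal genes, 8 with the minimum mean, 3 were called higher, and 0 without the 2 libraries of most background. They were Myh11, Pdgfra and Col6a1, at Tuft means of 199 ± 94.5, 104 ± 88.4 and 95.7 ± 59.9, with background at 9.03, 22.9 and 10.8%. Myh11 lost its call without any 1 of Stem 2, Stem 3 and Tuft 4 (adjusted p 0.0115 to 0.0454). Pdgfra lost its call without any 1 of Stem 2, Stem 3, Tuft 2 and Tuft 3 (adjusted p 0.0103 to 0.0408). Col6a1 lost its call without any 1 of Stem 2, Stem 3, Tuft 2, Tuft 3 and Tuft 4 (adjusted p 0.0114 to 0.0568). The part of these cells in the other changes was not tested.

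**Figure D3:**
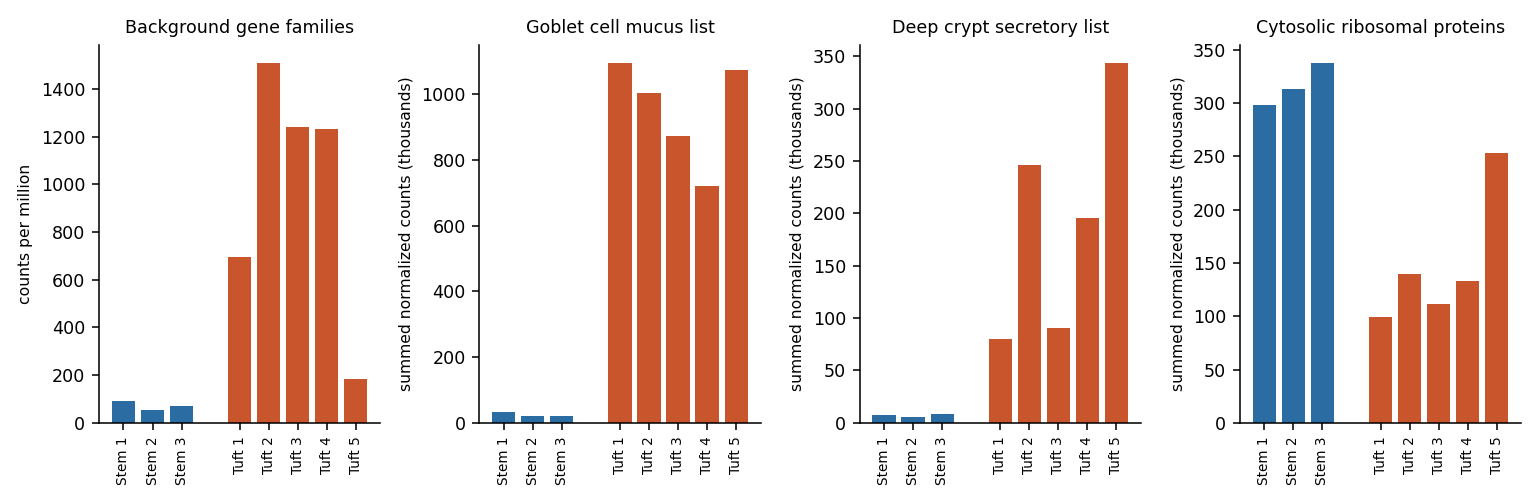
Bars from 0 for each of the 3 Stem and 5 Tuft libraries, with background families in CPM and the summed normalized counts of the goblet, deep crypt secretory and cytosolic ribosomal protein lists. Background is 696 to 1510 CPM in Tuft 1 to Tuft 4 and 183 in Tuft 5, while goblet genes are high in all 5 Tuft libraries.

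The secretory apparatus was higher in Tuft. Of 27 genes of endoplasmic reticulum (ER) folding and the unfolded protein response 9 were called higher and none lower, with a median log2 fold change of 1.07 over those with a mean of at least 50, against -0.09 over all such genes. Ern2, the stress sensor of mucus-secreting cells, was at 1307, 814 and 905 in Stem and 5416, 5247, 3385, 4026 and 6864 in Tuft (log2 fold change 2.31 ± 0.37, adjusted p = 3.73e-06). Eif2ak3, another sensor of the ER, was at 794, 688 and 586 in Stem and 2660, 2470, 2233, 1926 and 3584 in Tuft (log2 fold change 1.91 ± 0.33, adjusted p = 1.52e-05). Xbp1, the transcription factor downstream of the Ern sensors, was at 1269, 1026 and 1237 in Stem and 4053, 3651, 3287, 3082 and 6107 in Tuft (log2 fold change 1.78 ± 0.37, adjusted p = 0.000224), and Edem1, which marks misfolded glycoproteins for destruction, at 935, 842 and 1032 in Stem and 3065, 2769, 2616, 2227 and 3582 in Tuft (log2 fold change 1.61 ± 0.32, adjusted p = 0.00017). None of these 4 genes overlapped between the groups. Hspa5, the main chaperone of the ER, was at 5210, 8265 and 7179 in Stem and 13285, 14314, 13444, 12289 and 23672 in Tuft without overlap, but missed the threshold (log2 fold change 1.16 ± 0.42, adjusted p = 0.0305). The count moved with the settings, from 5 without Stem 1 to 11 without Tuft 4, 7 without Tuft 5, 20 by DESeq2's own test and 19 with its size factors. Tuft 5 held the highest Xbp1, Ern2, Edem1 and Hspa5. The summed deep crypt secretory list was also highest in Tuft 5. The summed goblet list was highest in Tuft 1, at 1095443 normalized counts against 1072339 in Tuft 5. Whether these levels are linked was not tested.

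Cholesterol synthesis rose as well, with 9 of 21 genes called higher, none lower and a median of 0.90. Insig1, which holds back the sterol-sensing transcription factors, was at 364, 469 and 247 in Stem and 1019, 1312, 1552, 835 and 1848 in Tuft (log2 fold change 1.87 ± 0.33, adjusted p = 1.8e-05). Hmgcs1, at the entry to the pathway, was at 1502, 1593 and 1142 in Stem and 4549, 3329, 5298, 3142 and 7377 in Tuft (log2 fold change 1.75 ± 0.37, adjusted p = 0.00035). Msmo1 was at 385, 587 and 593 in Stem and 2419, 1434, 1694, 1328 and 3031 in Tuft (log2 fold change 1.93 ± 0.38, adjusted p = 0.000146), and Lss, which closes the sterol rings, at 214, 479.5 and 546 in Stem and 1369, 972, 1498, 739.5 and 1408 in Tuft (log2 fold change 1.53 ± 0.32, adjusted p = 0.00027). All 5 Tuft libraries lay above Stem for these genes. Srebf2, which encodes the transcription factor of the pathway, was not called (log2 fold change 0.25, adjusted p = 0.6). Leaving out Stem 1 gave 4 called genes, and Lss lost its call without Stem 1 (adjusted p 0.0101).

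Turning to the stem side, genes of Wnt targets and the crypt base fell in part. Of 23 genes 8 were called lower and 2 higher, with a median of -0.81. Lgr5 (chr10:115450311-115587780) was at 2594, 2006 and 3197 in Stem and 1651, 788, 1029, 1209 and 915 in Tuft (log2 fold change -1.22 ± 0.28, adjusted p = 0.00103), so that the groups did not overlap while Tuft libraries kept a level well above 0. Lgr5 lost its call without Stem 3 (adjusted p 0.0103), and by DESeq2's own test its adjusted p was 0.0403. Axin2, a Wnt target and feedback inhibitor, was at 4499, 4155 and 5314 in Stem and 2109, 1325, 1996, 1210 and 1853 in Tuft (log2 fold change -1.45 ± 0.28, adjusted p = 0.000112). Rnf43, a ligase that removes Wnt receptors, was at 3702, 2817 and 3409 in Stem and 1113, 1283, 1045, 1242 and 1383 in Tuft (log2 fold change -1.44 ± 0.27, adjusted p = 6.48e-05), and Smoc2, a secreted protein of stem cells, at 2267, 2088 and 3186 in Stem and 1185, 642, 1186, 689 and 1129 in Tuft (log2 fold change -1.38 ± 0.30, adjusted p = 0.000504). The adjusted p of Smoc2 was 0.0226 by DESeq2's own test. Myc, a transcription factor of growth and a Wnt target, was at 3298, 2462 and 3020 in Stem and 334, 829, 1016, 686 and 1074 in Tuft and lowest in Tuft 1 (log2 fold change -1.88 ± 0.32, adjusted p = 7.79e-06). Cdca7 gave the largest decrease of the list, from 3102, 3517 and 3733 to 426, 729, 777, 638 and 1134 (log2 fold change -2.21 ± 0.30, adjusted p = 5.55e-08). Ascl2, a master regulator of intestinal stem cells, did not pass the test. It was at 449.8, 445 and 559.9 in Stem and 539.5, 134, 244, 115 and 149 in Tuft, where Tuft 1 lay within the Stem range and the other 4 libraries below it (log2 fold change -1.06 ± 0.39, adjusted p = 0.0298).

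The list also held genes on the tuft side. Nkd1, an inhibitor induced by Wnt, was at 45.1, 50.6 and 79.5 in Stem and 604, 358, 411, 953 and 522 in Tuft (log2 fold change 3.28 ± 0.42, adjusted p = 1.86e-08). Tnfrsf19 was at 0, 30.1 and 115 in Stem and 339, 204, 164, 151 and 205 in Tuft (log2 fold change 2.09 ± 0.53, adjusted p = 0.00238), with little space between Stem 3 and Tuft 4, and Tnfrsf19 lost its call without Stem 1 or without Stem 2 (adjusted p 0.0293 to 0.0312). Sox9, Prom1, Ephb2 and Slc12a2 gave log2 fold changes of 0.40, 0.44, 0.04 and -0.80 and were not called. Without the 2 Tuft libraries of most background 5 genes of the list were called lower.

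Single genes of the Notch pathway were called in both directions. Notch1, the receptor that holds stem cells from the secretory fate, was at 5961, 4676 and 5054 in Stem and 2300, 1042, 2063, 1350 and 1487 in Tuft (log2 fold change -1.67 ± 0.29, adjusted p = 2.17e-05). Its targets Hes1 and Nrarp fell with it, Hes1 from 1338, 1357 and 1468 to 569, 309, 404, 236 and 593 (log2 fold change -1.70 ± 0.32, adjusted p = 4.66e-05) and Nrarp from 823, 757 and 616 to 269.7, 108, 162, 172 and 179.9 (log2 fold change -2.03 ± 0.33, adjusted p = 3.19e-06). The ligand gene Jag1 fell too, from 786, 542 and 575 to 212, 266, 201, 209 and 312 (log2 fold change -1.38 ± 0.30, adjusted p = 0.000534). Dll1, the ligand of secretory cells, rose from 172, 216 and 238 to 1638, 1233, 1041, 1262 and 1484 (log2 fold change 2.67 ± 0.35, adjusted p = 3.71e-08), and Atoh1, which Hes1 represses, was among the increases given above. Notch4, a receptor known from blood vessels, was at 76.5, 56.3 and 53.9 in Stem and 620.0, 299, 833, 307 and 321 in Tuft (log2 fold change 2.93 ± 0.46, adjusted p = 2.25e-06), with background at 4.01% of its Tuft mean. In all 5 of 26 genes were called lower and 3 higher, and the median of -0.03 lies within the shift between scalings. Of the 26, 20 had a mean of at least 50. Over all genes with that mean 7.31% were called lower and 13.5% higher, so that the higher count is near the share of all genes.

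Genes of growth factor signaling were called in both directions. Of 15 genes of the EGF receptor family and its ligands 1 was called higher and 1 lower. Of the 15, 9 met the minimum mean, and these counts are near the shares of all genes with that mean, 13.5% and 7.31%. Erbb2, the co-receptor of the EGF receptor family, fell from 5004, 3433 and 3484 to 1456, 1075, 1474, 1088 and 1507 (log2 fold change -1.59 ± 0.31, adjusted p = 0.000121). Egf was the 1 gene of that family called higher, at 136, 26.2 and 20.9 in Stem and 486, 564, 442, 383 and 760.4 in Tuft (log2 fold change 3.19 ± 0.49, adjusted p = 1.32e-06). Of 14 FGF receptors and targets of ERK signals 3 rose and 3 fell. All 14 met the minimum mean, and of all genes with that mean 13.5% were called higher and 7.31% lower. Etv5, an Ets factor that ERK signals induce, was at 396, 320.1 and 329.5 in Stem and 2409, 2255, 2370, 1454 and 3417 in Tuft (log2 fold change 2.78 ± 0.33, adjusted p = 1.7e-09), while its relative Etv4 was at 838, 597 and 858 in Stem and 336, 226, 189.6, 188 and 409.9 in Tuft (log2 fold change -1.47 ± 0.33, adjusted p = 0.000684). Etv4 lost its call by DESeq2's own test, with the older fit and without the 2 libraries of most background (adjusted p 0.024, 0.0138 and 0.0168). Fgfr4 fell from 1115, 792 and 862 to 344, 221, 287, 319 and 315 (log2 fold change -1.63 ± 0.29, adjusted p = 2.9e-05), and Fgfr3 missed the threshold at 912, 593 and 543 in Stem and 1872, 940.2, 1172, 853 and 1372 in Tuft (log2 fold change 0.87 ± 0.34, adjusted p = 0.042). Spred1, an inhibitor of Ras signals, fell (log2 fold change -1.08 ± 0.30, adjusted p = 0.00507), and Spred1 lost its call without any 1 of Stem 2, Tuft 1 and Tuft 2 (adjusted p 0.0151 to 0.0164). The other increases, Etv1 and Fgfr1, rested on low counts, with background at 35.3 and 20.4% of the Tuft mean. Fgfr1 lost its call without any 1 of Stem 2, Stem 3, Tuft 2 and Tuft 4 (adjusted p 0.0101 to 0.0282). Etv1 fell under the minimum mean without Tuft 3.

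**Figure D4:**
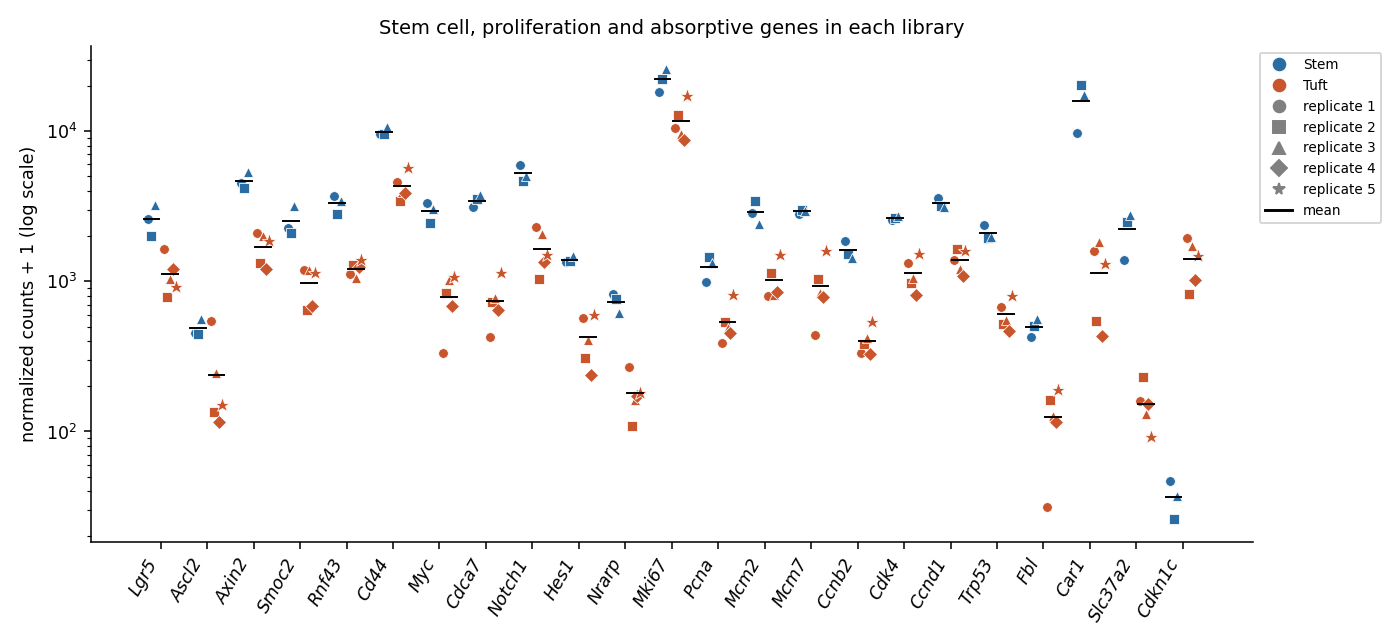
Normalized counts plus 1 (log axis) of 23 genes of Wnt signaling, Notch signaling, the cell cycle and metabolism in each of the 3 Stem and 5 Tuft libraries, with a line at each group's mean. Most lie higher in Stem, with Cdkn1c as the exception, and Tuft 1 reaches the Stem range for Ascl2.

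Proliferation genes were lower in Tuft as a group, without being absent. Of 45 DNA replication genes 25 were called lower and none higher, with a median of -1.12, and of 47 genes of mitosis 22 were called lower and none higher, with a median of -1.03. Mcm7, a subunit of the helicase that opens replication origins, was at 2821, 3001 and 2939 in Stem and 439, 1037, 832, 787 and 1582 in Tuft (log2 fold change -1.63 ± 0.30, adjusted p = 3.91e-05). Mcm3, of the same ring, was at 3240, 4055 and 3158 in Stem and 942, 987, 832, 829 and 1712 in Tuft (log2 fold change -1.70 ± 0.32, adjusted p = 5.3e-05). Neither overlapped, and Tuft 5 was the highest Tuft library for both. Pola2, of the primase complex, fell from 1927, 1609 and 1212 to 319, 414, 317, 449.7 and 645 (log2 fold change -1.86 ± 0.29, adjusted p = 2.14e-06), and Pold2, of the main lagging strand polymerase, from 1557, 1467 and 1265 to 333, 478, 378, 281 and 603 (log2 fold change -1.77 ± 0.28, adjusted p = 3.6e-06). The groups stayed apart for these as well. Mcm2 was at 2843, 3410 and 2424 in Stem and 795, 1133, 815, 851 and 1502 in Tuft (log2 fold change -1.50 ± 0.30, adjusted p = 0.000153). Pcna, the sliding clamp, was at 986, 1444 and 1321 in Stem and 386, 536, 488, 451 and 808 in Tuft (log2 fold change -1.21 ± 0.29, adjusted p = 0.00172), and Pcna lost its call without Stem 2 (adjusted p 0.0105). All Tuft libraries also lay below Stem for the 4 mitotic genes that follow. Ccnb2, a mitotic cyclin, fell from 1868, 1522 and 1432 to 334, 381, 417, 327 and 534 (log2 fold change -2.0 ± 0.31, adjusted p = 1.45e-06). The spindle checkpoint kinase gene Bub1b fell from 2029, 2222 and 2147 to 679.8, 732, 599, 598 and 1105 (log2 fold change -1.51 ± 0.28, adjusted p = 3.79e-05), and Cdc20 and Cenpa, of the anaphase complex and the centromere, fell as well (for Cdc20 log2 fold change -1.44 ± 0.30, adjusted p = 0.000328, for Cenpa log2 fold change -1.46 ± 0.31, adjusted p = 0.000338).

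Mki67, the usual marker of dividing cells, did not pass. It was at 18355, 22299 and 26133 in Stem and 10541, 12830, 9531, 8781 and 17022 in Tuft, where all Tuft libraries lay below Stem and Tuft 5 came close to Stem 1 (log2 fold change -0.92 ± 0.42, adjusted p = 0.08). Tuft 5 held the highest Tuft level of most of these genes, and leaving it out gave 28 called lower genes of DNA replication and 32 of mitosis. Without the 2 libraries of most background the counts were 13 and 9, and with the older fit 14 and 7. Leaving out Stem 2 gave 15 and 12, and leaving out Tuft 3 gave 16 and 13. Under DESeq2 size factors and library totals 2 mitosis genes were called higher, while 17 and 24 were called lower, and DESeq2's own test gave 2 higher and 12 lower.

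Among G1 cyclins, kinases and inhibitors 7 of 25 were called lower and 1 higher. Cdk4 was at 2550, 2640 and 2731 in Stem and 1330, 972, 1054, 804 and 1518 in Tuft (log2 fold change -1.21 ± 0.28, adjusted p = 0.0012), and its partner Ccnd1 at 3596, 3165 and 3133 in Stem and 1391, 1651, 1206, 1083 and 1579 in Tuft (log2 fold change -1.25 ± 0.29, adjusted p = 0.000939). Ccne1 fell from 275, 559 and 459 to 69.6, 149, 162, 98.9 and 166 (log2 fold change -1.73 ± 0.38, adjusted p = 0.000526), and Ccne1 lost its call without Stem 2 (adjusted p 0.0108). E2f4, a repressor of the same cycle genes, fell (log2 fold change -1.19 ± 0.29, adjusted p = 0.00195), and E2f4 lost its call without Stem 1 (adjusted p 0.0108). The single increase was Cdkn1c, which encodes the cyclin-dependent kinase inhibitor p57. It was at 45.9, 25 and 36.4 in Stem and 1948, 828, 1719, 1022 and 1471 in Tuft (log2 fold change 5.30 ± 0.43, adjusted p = 6.18e-15), a clear gap between the groups. Without the 2 libraries of most background 2 of the G1 genes were called lower, without Stem 2 there were 3, and without any 1 of Stem 1, Tuft 2 and Tuft 3 there were 4. Trp53, which encodes p53, fell from 2387, 1944 and 1969 to 672, 515, 549.8, 466 and 799 without overlap (log2 fold change -1.79 ± 0.28, adjusted p = 2.34e-06).

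Promoters of the called lower replication genes were searched for the E2F sites TTTCCCGC and TTTGGCGC on both strands, since E2F factors drive genes of S phase. Of the 21 such genes with a window 7 (33.3%) held a site, against 5.11% of all called lower genes and 2.39% of all tested genes with a window. Mcm3, Mcm5, Mcm6 and Mcm7, all of the helicase, were among the 7. The CCAAT box, which the factor NF-Y binds, was in 14 of 18 called lower mitosis genes with a window (77.8%), also on either strand. It was in 42.0% of all called lower genes and in 41.7% of all genes. Mcm7 and Mcm3 are printed since their decreases were described above, with the sites in capitals as they read on the strand of the gene, from RefSeq on GRCm38.p6, both on the minus strand. Mcm7 is chr5:138171834-138172133 and Mcm3 is chr1:20820263-20820562. No binding was measured, and genes without a match may hold other forms of the site.
Mcm7: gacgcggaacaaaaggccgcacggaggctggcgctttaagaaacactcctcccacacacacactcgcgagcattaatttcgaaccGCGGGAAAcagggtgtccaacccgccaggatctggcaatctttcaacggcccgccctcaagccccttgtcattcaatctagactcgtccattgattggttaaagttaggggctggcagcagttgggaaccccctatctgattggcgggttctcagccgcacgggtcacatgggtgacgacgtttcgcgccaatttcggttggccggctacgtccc
Mcm3: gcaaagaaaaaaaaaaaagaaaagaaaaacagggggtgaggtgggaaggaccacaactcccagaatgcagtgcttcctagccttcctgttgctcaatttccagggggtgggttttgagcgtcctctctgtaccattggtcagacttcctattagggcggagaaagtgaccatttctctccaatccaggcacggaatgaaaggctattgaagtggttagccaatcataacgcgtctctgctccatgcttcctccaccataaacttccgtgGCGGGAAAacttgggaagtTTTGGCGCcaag

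Genes of ribosome production were lower in Tuft as well. Of 48 genes of ribosome biogenesis 26 were called lower and none higher, and all 48 had a log2 fold change under 0, from -1.96 to -0.26. Fbl, the methylase of ribosomal RNA, was at 423, 499.9 and 561 in Stem and 30.5, 162, 126, 114 and 186 in Tuft, lowest in Tuft 1 (log2 fold change -1.96 ± 0.35, adjusted p = 2.98e-05). Rrp1b was at 769.5, 829 and 859.8 in Stem and 188, 229.7, 303, 242 and 367 in Tuft (log2 fold change -1.60 ± 0.30, adjusted p = 4.53e-05), Utp14a at 895, 666 and 867 in Stem and 79.3, 249.9, 248, 289 and 424 in Tuft (log2 fold change -1.61 ± 0.32, adjusted p = 0.000138), and Mybbp1a at 6373, 5942 and 5645 in Stem and 2312, 1884, 1833, 1583 and 2859 in Tuft (log2 fold change -1.51 ± 0.29, adjusted p = 9.52e-05). Nucleolin, encoded by Ncl, was among the called lower genes with the highest counts, at 28608, 33009 and 41729 in Stem and 10360, 10873, 10382, 10450 and 20203 in Tuft, where Tuft 5 came nearest to Stem (log2 fold change -1.47 ± 0.42, adjusted p = 0.00759). Ncl lost its call without any 1 of Stem 1, Stem 3, Tuft 1, Tuft 2 and Tuft 3 (adjusted p 0.0149 to 0.024). With Tuft 5 left out 34 genes of the list were called lower, with the older fit 16, and without the 2 libraries of most background 9. The E-box CACGTG that Myc binds was in 5 of the 22 called lower genes with a promoter window (22.7%), in 5 of 21 called lower DNA replication genes (23.8%), in 13.3% of all called lower genes and in 9.31% of all tested genes.

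Cytosolic ribosomal protein genes had a median of -1.02, and 26 of 85 were called lower and none higher. Rps2 was at 10701, 9245 and 9445 in Stem and 2653, 2767, 3124, 2223 and 5194 in Tuft (log2 fold change -1.61 ± 0.35, adjusted p = 0.000524), Rps18 at 1454, 1584 and 1887 in Stem and 465, 204, 607, 182 and 1037 in Tuft (log2 fold change -1.68 ± 0.37, adjusted p = 0.000644) and Rpsa at 23382, 23264 and 23671 in Stem and 6269, 8705, 6124, 7565 and 15458 in Tuft (log2 fold change -1.41 ± 0.41, adjusted p = 0.00836). Rps3 was at 16691, 17238 and 17869 in Stem and 4904, 6622, 5258, 6449 and 11980 in Tuft (log2 fold change -1.29 ± 0.38, adjusted p = 0.00828), and Rpl10a fell too (log2 fold change -1.58 ± 0.35, adjusted p = 0.000696). These calls rest on few libraries. The whole list summed to 253153 normalized counts in Tuft 5 and to 99375 to 139426 in the other Tuft libraries, and the count was 44 without Tuft 5 and 9 without Tuft 1. Without any 1 of Tuft 2, Tuft 3 and the 3 Stem libraries it was 12 to 17. It was 6 with the older fit and 0 without the 2 libraries of most background, while the replicate block gave 61. Rpsa lost its call without any 1 of Stem 1, Stem 2, Tuft 1, Tuft 2 and Tuft 3 (adjusted p 0.0124 to 0.0298), and Rps3 lost its call without any 1 of Stem 1, Stem 2, Tuft 1, Tuft 2 and Tuft 3 (adjusted p 0.0119 to 0.0282). Many of these genes have near-identical processed copies, and reads that map to several places were not counted, so their levels are uncertain.

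The largest decreases were in enzymes and transporters of the absorptive crypt. Slc37a2, a sugar-phosphate exchanger, was at 1391, 2472 and 2777 in Stem and 158, 231, 129, 151 and 91.2 in Tuft (log2 fold change -3.90 ± 0.53, adjusted p = 5.82e-08), the largest fitted decrease among called genes. Car1, the carbonic anhydrase of colon epithelium, was at 9784, 20153 and 17387 in Stem and 1601, 544, 1817, 430.1 and 1308 in Tuft (log2 fold change -3.79 ± 0.56, adjusted p = 5.98e-07). Slc26a3, the chloride and bicarbonate exchanger of the colon surface, was at 311, 674 and 706 in Stem and 69.6, 135, 104, 125 and 71.9 in Tuft (log2 fold change -2.51 ± 0.48, adjusted p = 6.95e-05), with background at 14.9% of the Tuft mean. Cftr, the chloride channel of crypts, fell from 7434, 9002 and 10645 to 2005, 1603, 2229, 1335 and 2773 (log2 fold change -2.18 ± 0.35, adjusted p = 4.26e-06) and Slc9a2, a sodium and proton exchanger, from 1049, 703 and 834 to 272, 112, 221, 144 and 154 (log2 fold change -2.26 ± 0.35, adjusted p = 1.68e-06). In all 10 of 28 genes of absorptive transport were called lower. The 5 called higher included Guca2a, which encodes guanylin, at 1175, 729.8 and 889 in Stem and 3980, 8661, 4159, 6443 and 14049 in Tuft, highest in Tuft 5 (log2 fold change 3.01 ± 0.45, adjusted p = 7.91e-07). Guca2b rose likewise (log2 fold change 2.18 ± 0.48, adjusted p = 0.000642). Scnn1a, a subunit of the epithelial sodium channel, rose from 508, 382 and 355 to 2286, 3080, 2486, 2122 and 2940 (log2 fold change 2.64 ± 0.39, adjusted p = 4.7e-07), and its partner Scnn1b from 0, 32.6 and 28.3 to 247, 212, 115, 151 and 227 (log2 fold change 3.17 ± 0.59, adjusted p = 5.77e-05).

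Of the 12 largest decreases by fitted log2 fold change 8 were genes of no list here, given by their rank. The cytochrome P450 gene Cyp2c65 was at 1192, 2009 and 1600 in Stem and 131, 117, 192, 92 and 194 in Tuft (log2 fold change -3.44 ± 0.39, adjusted p = 6.97e-10). Its relative Cyp2c55 was at 1005, 1312 and 1008 in Stem and 83, 55.5, 214, 65.6 and 69.4 in Tuft (log2 fold change -3.54 ± 0.52, adjusted p = 4.98e-07), and Cyp2w1 at 232, 502 and 402 in Stem and 4.88, 46.7, 41.7, 48.3 and 41.8 in Tuft (log2 fold change -3.36 ± 0.44, adjusted p = 2.93e-08). Hao2, a peroxisomal oxidase of hydroxy acids, fell from 1834, 3218 and 2947 to 90.3, 201, 336, 112 and 392 (log2 fold change -3.52 ± 0.45, adjusted p = 1.49e-08). The esterase genes Aadac and Ces1g fell (for Aadac log2 fold change -3.43 ± 0.42, adjusted p = 5.07e-09, for Ces1g log2 fold change -3.24 ± 0.40, adjusted p = 5.82e-09). So did Akr1c19, an aldo-keto reductase, and Hsd3b3, a steroid dehydrogenase (for Akr1c19 log2 fold change -3.31 ± 0.40, adjusted p = 2.89e-09, for Hsd3b3 log2 fold change -3.05 ± 0.43, adjusted p = 1.98e-07). The groups did not overlap for any of these 8 genes, and background was at most 9.79% of their Tuft means.

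Called lower genes with the highest counts in Stem were led by Dmbt1, a secreted mucosal glycoprotein, at 157395, 162146 and 132930 in Stem and 28526, 12273, 24329, 9085 and 30128 in Tuft (log2 fold change -2.85 ± 0.67, adjusted p = 0.0012). Clca3b was at 53840, 44542 and 44960 in Stem and 13369, 11587, 12989, 8668 and 18409 in Tuft (log2 fold change -1.88 ± 0.45, adjusted p = 0.00153), and the keratin Krt19 at 27304, 29416 and 24352 in Stem and 6951, 6945, 6490, 5462 and 12861 in Tuft (log2 fold change -1.80 ± 0.49, adjusted p = 0.00445). Aldh1b1, an aldehyde dehydrogenase of stem cells, was at 18022, 16350 and 16347 in Stem and 4683, 4577, 4398, 3691 and 7504 in Tuft (log2 fold change -1.76 ± 0.36, adjusted p = 0.000224). Krt19 lost its call without any 1 of Stem 1, Tuft 1, Tuft 2 and Tuft 3 (adjusted p 0.0141 to 0.0179). Dmbt1, Clca3b and Krt19 were not called without the 2 libraries of most background (adjusted p 0.0289, 0.0218 and 0.0545).

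In energy metabolism fatty acid oxidation and ketogenesis had 6 of 21 genes called lower and none higher. Hadh, of the mitochondrial oxidation spiral, fell from 5365, 6036 and 6039 to 1560, 1352, 1515, 1277 and 2483 (log2 fold change -1.82 ± 0.33, adjusted p = 3.37e-05). Acads, which starts the turn for short chains, fell from 6845, 6915 and 6206 to 2107, 1875, 1552, 1703 and 3208 (log2 fold change -1.67 ± 0.37, adjusted p = 0.000637), and Acaa2, the last enzyme of a turn, fell with them (log2 fold change -1.26 ± 0.31, adjusted p = 0.00173). Acaa2 lost its call without Stem 1 (adjusted p 0.0101). Respiratory chain genes had a median of -0.63. Of 83, 77 met the minimum mean and 4 were called lower (Atp5k, Ndufs3, Uqcrc1 and Ndufa5), beside 7.31% of all genes with that mean. Uqcrc1, a core subunit of complex III, was at 7770, 8146 and 7125 in Stem and 2784, 2978, 3064, 2650 and 5376 in Tuft (log2 fold change -1.18 ± 0.34, adjusted p = 0.00797), highest in Tuft 5. That count was 20 without Tuft 5, 0 to 2 without any 1 of the Stem libraries, Tuft 1, Tuft 2 and Tuft 3, and 0 with the older fit or without the 2 libraries of most background. Each of the 4 lost its call without any 1 of Stem 2, Tuft 2 and Tuft 3 and without some of Stem 1, Stem 3, Tuft 1 and Tuft 4 (adjusted p 0.011 to 0.0343). Of 20 genes of glycolysis, 19 with the minimum mean, 3 were called lower and 1 higher, beside 7.31% and 13.5% of all genes with that mean. Slc16a1, which carries lactate and butyrate, fell from 3388, 3987 and 3725 to 815, 888, 631, 696 and 1092 (log2 fold change -2.16 ± 0.41, adjusted p = 7.12e-05). The glycolytic enzyme genes Pfkl and Pgam1 fell too (for Pfkl log2 fold change -1.42 ± 0.35, adjusted p = 0.002, for Pgam1 log2 fold change -1.34 ± 0.36, adjusted p = 0.00389). Pgam1 lost its call without Stem 1 or without Tuft 1 (adjusted p 0.0108 to 0.0395). Hk2, a hexokinase, rose from 1401, 1974 and 1534 to 4338, 3255, 3277, 2587 and 4245 (log2 fold change 1.11 ± 0.32, adjusted p = 0.00738), and Hk2 lost its call without any 1 of Stem 1, Stem 3, Tuft 1, Tuft 2, Tuft 3 and Tuft 5 (adjusted p 0.0119 to 0.0457).

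Of 28 genes of the interferon response 12 were called higher and 1 lower, with a median of 1.21. Oas2, a sensor of double-stranded RNA, was at 27.5, 64 and 12.8 in Stem and 917, 418, 1046, 397 and 1395 in Tuft (log2 fold change 4.57 ± 0.54, adjusted p = 2.06e-09). Its relative Oas3 was at 52, 115 and 77.5 in Stem and 474, 252, 730.5, 158 and 566 in Tuft (log2 fold change 2.40 ± 0.44, adjusted p = 4.37e-05), and Zbp1, a sensor of Z-form nucleic acid, at 81.8, 38.4 and 34.4 in Stem and 455, 336, 442, 293 and 832 in Tuft (log2 fold change 3.25 ± 0.47, adjusted p = 4.06e-07). Mx1 was at 0, 39.7 and 5.39 in Stem and 493, 141, 179.5, 133 and 280.2 in Tuft (log2 fold change 3.94 ± 0.70, adjusted p = 2.56e-05). All Tuft libraries lay above all Stem libraries for these genes, with Tuft 4 the lowest. The exception was Ifitm3, which fell from 1331, 1356 and 1463 to 431, 146, 254, 117 and 427 (log2 fold change -2.30 ± 0.34, adjusted p = 4.76e-07). The called higher count was 7 without Stem 1, 8 without Tuft 5, 9 without the 2 libraries of most background and 8 with the older fit.

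Class II antigen presentation genes were among the decreases. Cd74, the invariant chain, was at 936, 1639 and 1749 in Stem and 76.9, 280.2, 107, 159 and 238 in Tuft (log2 fold change -3.04 ± 0.35, adjusted p = 8.79e-10). H2-Eb1 was at 174, 194 and 236 in Stem and 18.3, 51.7, 46.8, 48.3 and 57.7 in Tuft (log2 fold change -2.15 ± 0.47, adjusted p = 0.000587), with background at 10.3% of the Tuft mean. H2-Ab1 was at 236, 437 and 617 in Stem and 161, 237, 40.4, 148 and 211 in Tuft, where Tuft 2 lay within the Stem range (log2 fold change -1.41 ± 0.36, adjusted p = 0.0025), and H2-Ab1 lost its call without Stem 3 or without Tuft 3 (adjusted p 0.0132 to 0.0339). Psmb10, of the immunoproteasome, fell (log2 fold change -1.02 ± 0.28, adjusted p = 0.00548) and Tap2, a peptide transporter of class I, rose (log2 fold change 1.25 ± 0.36, adjusted p = 0.00807). Psmb10 lost its call without any 1 of Stem 1, Stem 2, Tuft 2 and Tuft 3 (adjusted p 0.0144 to 0.0207), and Tap2 lost its call without any 1 of Stem 1, Stem 3, Tuft 1 and Tuft 2 (adjusted p 0.0156 to 0.0577). In all 4 of 17 genes were called lower and 1 higher, and 2 were called lower without Tuft 3. All 17 met the minimum mean, and of all genes with that mean 7.31% were called lower and 13.5% higher.

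Among DNA methylation genes Uhrf1 and Dnmt1, which copy methylation onto new DNA, were called lower and none of the other 7 was called. Uhrf1 was at 1834, 2839 and 2334 in Stem and 625, 912, 791, 674 and 1597 in Tuft (log2 fold change -1.33 ± 0.30, adjusted p = 0.00082), and Dnmt1 at 6139, 6760 and 6126 in Stem and 2702, 2752, 2915, 2334 and 4012 in Tuft (log2 fold change -1.10 ± 0.29, adjusted p = 0.00382). Dnmt1 lost its call without any 1 of Stem 1, Tuft 2 and Tuft 3 (adjusted p 0.0101 to 0.0125). Dnmt3a and Dnmt3b, which set methylation anew, gave log2 fold changes of 0.00 and 0.04. Of 48 splicing regulators, 42 with the minimum mean, 2 were called higher and 1 lower, beside 13.5% and 7.31% of all genes with that mean. Srsf7, which promotes exon inclusion, was at 1809, 2942 and 3831 in Stem and 1208, 963, 852, 1163 and 1720 in Tuft (log2 fold change -1.27 ± 0.30, adjusted p = 0.00148). The neuronal regulators Rbfox3 and Nova2 rose at low counts, to 122, 130.0, 35.4, 65.6 and 22.6 and 89.1, 75.7, 61.9, 44.9 and 27.6, with background at 18.3 and 33.1% of the Tuft mean, and Nova2 lost its call without any 1 of Stem 1, Stem 2, Tuft 1, Tuft 2, Tuft 3 and Tuft 4 (adjusted p 0.0137 to 0.0591).

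**Figure D5:**
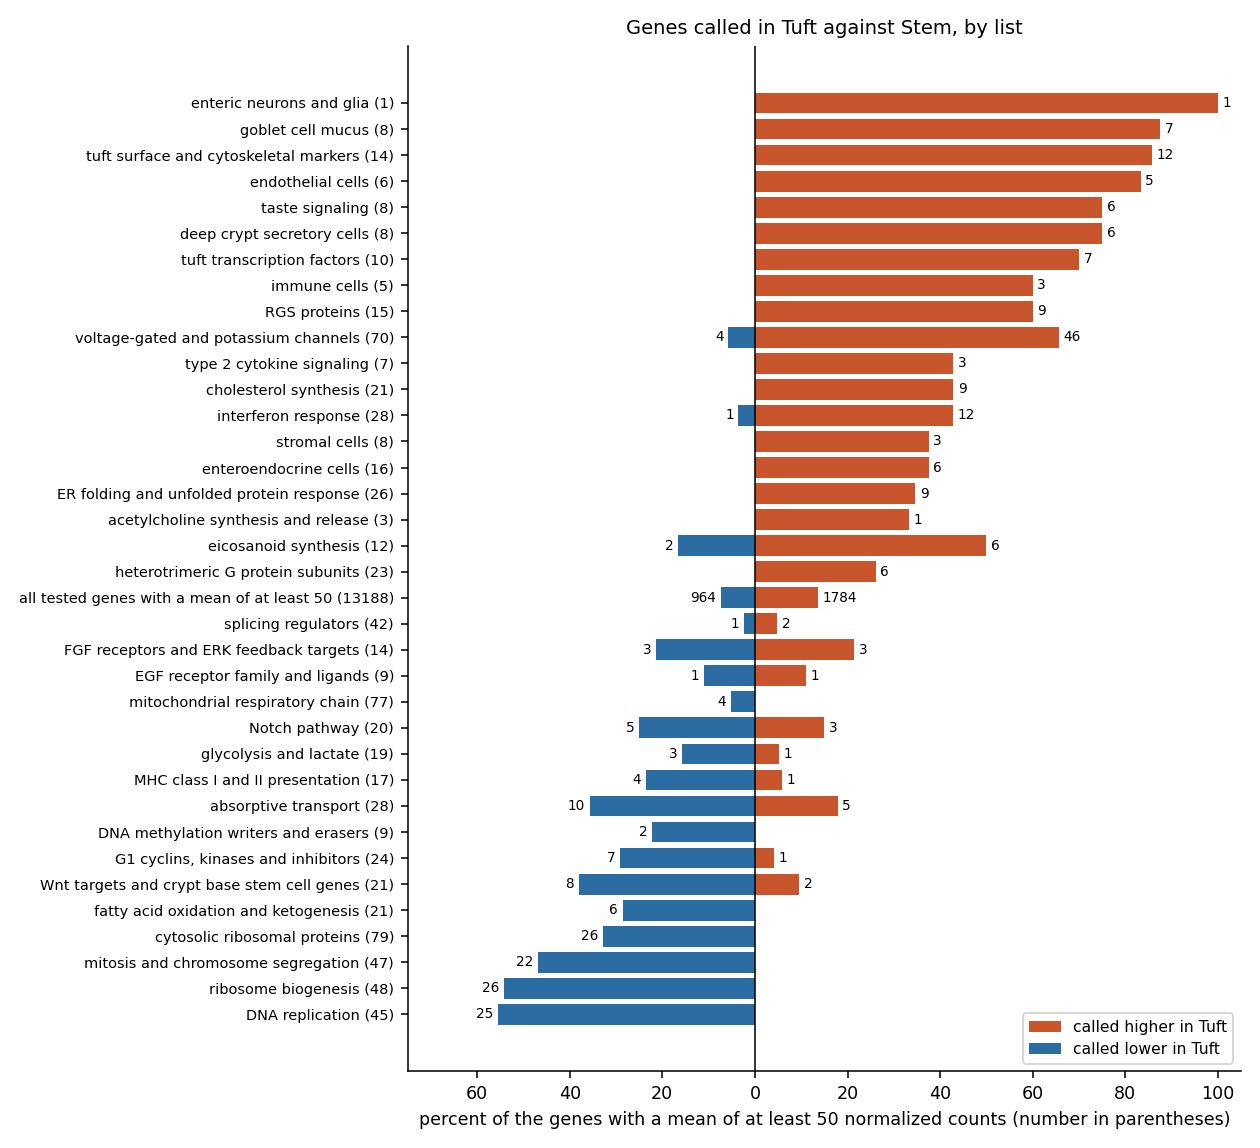
Share (horizontal axis, percent) of each list's genes with a mean of at least 50 normalized counts that was called higher in Tuft (orange bars to the right of 0) or lower (blue bars to the left), with the number called at each bar and the number of genes in parentheses. Goblet cell mucus (7 of 8) lies far to the right and DNA replication (25 of 45) far to the left, beside 1784 called higher and 964 called lower of all 13188 such genes.

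The largest increases over all genes were taken from called genes without overlap and with background under 20%. Of the 12 largest by fitted log2 fold change 8 belong to the tuft lists above, among them Rgs13, Gnat3, Hmx3, Sh2d7, Gfi1b, Dclk1 and Spib. The other 4, Samd5, Ly6g6f, Mn1 and Cdh23, had no read in any Stem library. Samd5 was at 485, 524, 409.5, 322 and 584 in Tuft, at least 674-fold higher (adjusted p = 3.37e-13), and the lymphocyte antigen gene Ly6g6f at 288, 244, 497, 577 and 493, at least 609-fold higher (adjusted p = 1.43e-11). The transcription cofactor gene Mn1 was at 299, 199, 458, 560.1 and 340.5, at least 539-fold higher (adjusted p = 3.67e-10). Cdh23, the cadherin that links the stereocilia of hair cells, was at 174, 320.5, 284, 251 and 46, at least 312-fold higher (adjusted p = 8.15e-07), with background at 18.6% of the Tuft mean and its lowest value in Tuft 5. All 5 Tuft libraries held reads of each of them.

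By count rather than by change, the called higher genes were led by Muc2, Fcgbp, Clca1, Reg4, Spink4, Agr2, Atp2a3 and Gfpt1 in mean normalized count in Tuft, which is not divided by gene length. The first 6 are the goblet and deep crypt secretory genes given above. Atp2a3, a calcium pump of the ER, was at 5145, 3993 and 3927 in Stem and 54760, 33186, 50099, 48214 and 52268 in Tuft (log2 fold change 3.45 ± 0.56, adjusted p = 3.9e-06), even across the Tuft libraries. Gfpt1, which makes the sugar donor for mucin glycans, was at 6138, 5806 and 6332 in Stem and 50211, 37213, 43306, 27455 and 60404 in Tuft (log2 fold change 2.84 ± 0.54, adjusted p = 7.77e-05).

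Splicing was compared through the reads of 2137 skipped exon events in 1501 genes. These tables list libraries by place, so that a value cannot be tied to the library of the same number in the gene counts. At an adjusted p under 0.05, 6 events (0.281%) were called with more inclusion in Tuft and 4 (0.187%) with less. Of the tested events 162 had an unadjusted p under 0.05. In 2 of the 10 called events the groups did not overlap. Inclusion is the share of the inclusion form after the reads of each form were divided by its length. Eif4a2, an RNA helicase of translation, included the 107 bases of exon chr16:23112351-23112457 (mm10, plus strand) at 46.7, 38.8 and 36.2% in Stem. In Tuft inclusion was 0, 25.9, 0, 25 and 16.7%, a fall of 27.1 percentage points (log2 ratio -1.62 ± 0.40, adjusted p = 0.0139). The exon is annotated in 1 protein coding transcript and in 1 transcript subject to nonsense-mediated decay.

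Zfp207, a zinc finger protein of the spindle and of splicing, was singled out after its values were seen, as the other event without overlap. Its exon of 93 bases, chr11:80393084-80393176 on the plus strand of mm10, was included at 1.33, 0.604 and 3.26% in Stem and at 16.2, 6.24, 16.3, 9.46 and 9.64% in Tuft. Inclusion rose by 9.84 percentage points (log2 ratio 2.76 ± 0.73, adjusted p = 0.0387). The exon is a multiple of 3 bases long and lies within the coding sequence of all 3 annotated transcripts that hold it. It is printed in capitals, with 20 bases of the neighboring exons of a GENCODE transcript in lower case, since the inclusion of this short coding segment is what differed.
Zfp207: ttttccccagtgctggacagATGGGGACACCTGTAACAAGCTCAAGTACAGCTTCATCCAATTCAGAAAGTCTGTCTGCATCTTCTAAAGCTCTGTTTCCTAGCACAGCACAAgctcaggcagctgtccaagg

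In the other called events the groups overlapped. Mbnl1, itself a splicing regulator, fell by 28.8 percentage points (adjusted p = 0.00137), with inclusion of 65, 95.2 and 60% in Stem and 93.3, 38.5, 16.2, 38.4 and 36.6% in Tuft, so that 1 Tuft library lay with Stem. Nox1, the superoxide-making oxidase of the colon, was included in full in Stem and in 100, 100, 33.3, 90.2 and 97% in Tuft, a fall of 15.9 points (adjusted p = 0.00162). Cdhr5, a protocadherin of the brush border, rose by 18.3 points from 87.5, 56.4 and 59.4% to 94.7, 82.2, 89.2, 83.7 and 80.7% (adjusted p = 0.00749). Nbr1 and Abhd2 were at 100% in every Tuft library and below it in 1 Stem library, a rise of 16.5 and of 15.0 points (adjusted p = 0.0075 and 0.0101). Uap1, Creb3l1 and Stk38 make up the 10. Events of Ctnnd1, Spen and Itga6 were tested and not called, with lowest adjusted p of 0.0628, 0.266 and 0.825. By place in the table, leaving out the fifth Tuft library gave 0 called events, the fourth 3, the second Tuft or the first Stem library 5, the second Stem library 36 and the third 61. The calls depend on the model. Limma on log2 ratios called 2 events, none of them among the 10, and an estimated negative binomial dispersion called 0, with 36 at an unadjusted p under 0.05.

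At the 3′ ends, the share of transcripts that use the distal polyadenylation site was tested for 3257 transcripts. At an adjusted p under 0.05, 1 (0.0307%) was called with more distal use in Tuft and 1 (0.0307%) with less, and 169 had an unadjusted p under 0.05. Aldh18a1, an enzyme of proline synthesis, used the distal site of chr19:40550257-40551329 (minus strand) in 60, 69 and 86% in Stem and in 100% in all 5 Tuft libraries (log2 ratio 5.25 ± 0.43, adjusted p = 0.014). In Tmem250-ps (chr2:26136808-26138913, minus strand) the distal share was 100% in every Stem library and 61, 67, 37, 78 and 64% in Tuft (log2 ratio -5.96 ± 0.54, adjusted p = 0.014). Another transcript of the same gene gave an adjusted p of 0.085. Both calls set a group with no spread at 100% against another, and both were lost with a pseudocount of 0.05 and when the share itself was tested. Top2a was at 10, 12 and 36% in Stem and 23, 47, 76, 40 and 47% in Tuft and was not called (adjusted p = 0.854), nor were Ihh and Cby1.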

How the data were processed

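Sorted colon cells were profiled by paired-end RNA-seq. Per the methods of the study, reads were aligned to mm10 with STAR 2.5.2a, and the authors deposited raw counts per gene made with HTSeq 0.6.1p1 without regard to strand. Overlapping and antisense genes therefore cannot be told apart, and reads that map to several places were dropped. Skipped exons came from rMATS reads of the inclusion and skipping forms, and the deposited DaPars table held, as a fraction, the share of transcripts using the distal polyadenylation site. The columns of fold changes, differences, p-values and false discovery rates in these tables, the MAJIQ tables and the tables of other cell types were not used here.

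Genes were tested with edgeR 4.0.16 (R 4.3.3) in 1 quasi-likelihood fit of the 22 libraries, with cell type as the only term, filterByExpr and TMM scaling. A normalized count is a count scaled by TMM to a common library size. The SE is the absolute log2 fold change over the square root of F. Skipped exons with at least 10 reads per library were tested by edgeR with a dispersion of 0, and distal shares by limma 3.58.1 on log2 ratios with a pseudocount of 0.01. The newer edgeR fit was chosen over the older one, and the dispersion of 0 on simulated data, after the files had been seen. Folds against a group at 0 used a floor of 3 counts over the group, and floors and 95% intervals cover counting error only. Reads on no counted gene feature stayed out of library sizes. Genes at the extremes were the 12 largest changes and the 8 highest means each way among called genes without overlap and with background under 20%. From each list up to 4 called genes each way were named by smallest adjusted p, plus a fixed set of stem, tuft and cell cycle genes. A few of these genes are not reported here. Members and lists were chosen with earlier results of these data known. Avil, Krt18, Itpr2, C1qb, Cd3e, Lyz2 and the list members named as not called were added after their values were seen. Replicates were independent sorts. Promoters were matched by symbol in the RefSeq table, which held 16762 of the 22781 tested genes. Alternatives were other scalings, filters, thresholds, DESeq2 1.42.0, thinning, a replicate block and each library left out.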

Additional observations from a re-analysis of the deposited data

Results flagged for a closer look

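Among 83 genes and list sums checked over the 5 Tuft libraries, 13 had 1 library whose gap to the nearest other exceeded Dixon's critical ratio of 0.71. Chance alone would mark about 1 in 20 of them, and the items are not independent. Tuft 5 was the library in 11 of the 13.

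In Tuft 5, Epcam stood at 29668 normalized counts against 14463 to 17362 in the other Tuft libraries, Hspa5 at 23672 against 12289 to 14314 and Chga at 8969 against 439 to 1466. Its sums were also the highest for ribosome biogenesis (67486 against 39074 to 41174), cytosolic ribosomal proteins (253153 against 99375 to 139426), the respiratory chain (210181 against 106306 to 119195), glycolysis (38345 against 26301 to 27952), fatty acid oxidation (47839 against 28367 to 31235), ER folding (263972 against 138256 to 160733) and enteroendocrine cells (29442 against 2419 to 6140). Its sum of endothelial genes was the lowest, at 336 against 899 to 995. Tuft 5 had the most counts and the least background of the Tuft libraries, and the part of either in these values was not tested.

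The other 2 items lay elsewhere. Chat was highest in Tuft 4, at 1456 against 356 to 635, and the sum of the tuft transcription factors was lowest in Tuft 2, at 17209 against 24086 to 25329.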

How the results depend on the processing

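Of the 180 named genes that were called, 124 were called under all 22 alternatives and none reversed. DESeq2's own test lost 9 of them, the older edgeR fit 31 and leaving out the 2 Tuft libraries of most background 44. Some alternatives only changed a threshold or filter on the main fit, so that no direction could reverse there. Those with a looser threshold could not lose a call. DESeq2's own test lost Atp5k, Ccne1, Etv4, H2-Ab1, Lgr5, Ndufa5, Scn2b, Smoc2 and Tnfrsf19 (adjusted p 0.0158 to 0.0403). The older fit lost Atp5k, Ccne1, Cdh5, Col6a1, Csf1r, Etv4, Fgfr1, Guca2b, H2-Ab1, H2-Eb1, Hk2, Itgax, Kdr, Lta4h, Myh11, Ncl, Ndufa5, Ndufs3, Nova2, Pcna, Pdgfra, Pgam1, Psmb10, Rps18, Rps3, Rpsa, Scn2b, Spred1, Tap2, Tnfrsf19 and Uqcrc1 (adjusted p 0.0101 to 0.0751). Among those lost without the 2 libraries were Acaa2, Acads, Atp5k, Cd44, Cdk4, Clca3b, Col6a1, Csf1r, Dmbt1, Dnmt1, E2f4, Etv1, Etv4, Fcgbp, Fgfr1, H2-Ab1, Hk2, Itgax, Kcnk5, Krt19, Lgr5, Lta4h, Myh11, Ncl, Ndufa5, Ndufs3, Nova2, Pcna, Pdgfra, Pfkl, Pgam1, Psmb10, Ptges2, Rpl10a, Rps18, Rps2, Rps3, Rpsa, Spred1, Srsf7, Tap2, Uhrf1 and Uqcrc1 (adjusted p 0.00588 to 0.169, with Etv1 lost through the minimum mean). Of the 2748 called genes, 1444 were also called with the older fit and 1493 without those 2 libraries. Genes called higher numbered 1784, against 2864 by DESeq2's own test, 1006 with the older fit, 1119 without the 2 libraries of most background, and 1007 (without Stem 2) to 1999 (without Tuft 5) when each library was left out. Genes called lower numbered 964, against 1660 in a fit of the 8 libraries alone, 1892 at an adjusted p under 0.05, 462 with the older fit, 382 without the 2 libraries of most background, and 661 to 1309 with each library left out. The older fit and the 2 libraries left out together were chosen after seeing the data. A replicate block gave 1866 called lower and 3883 in all. The share called higher was 64.9%, against 51.9% with that block and 54.7% in the fit of 8 libraries. Same-numbered Stem and Tuft libraries deviated together with r of 0.0433, -0.121 and 0.0244. Among pairs of unlike number r reached 0.202, for Stem 2 with Tuft 5. These values cannot settle whether Stem and Tuft libraries shared mice or sorts. The study calls its replicates independent without saying whether this holds across cell types, and the main fit took all libraries as unpaired. Called skipped exons numbered 10, against 20 with at least 10 reads per cell type, 5 at an adjusted p under 0.01, 2 by limma and 0 with an estimated dispersion, and 0 to 61 with each library left out. The 2 called distal sites became 0 with a pseudocount of 0.05, on the share itself and at an adjusted p under 0.01, and 0 to 6 with each library left out. The cause of these shifts was not tested. The Tuft libraries held 9930648 to 11906187 counts in 4 of the 5, and thinning all libraries to the smallest of the 22 gave 2121 called genes.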

Other observations

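The tuft genes were also read in the other 4 cell types of the series, where no test was made. Mean normalized counts of Dclk1 were 21903 (range 11726 to 31011) in Tuft, 153 (range 46.3 to 313) in SecPDG, 13.9 (range 1.63 to 26.1) in absorptive progenitors (AbsPro) and 185 (range 89 to 275) in enterocytes. The 2 libraries of enteroendocrine cells (EEC) held more, at 2861 (range 1782 to 3940). Trpm5 had a mean of 9728 (range 5506 to 14576) in Tuft, 1416 (range 533 to 2299) in EEC, 153 (range 124 to 190.0) in SecPDG and 145 (range 82.1 to 226) in enterocytes. Rgs13 was at 0 in every Stem and AbsPro library and at 395 (range 230.0 to 561) in EEC. Ptprc, the gene of Cd45, had a mean of 1671 (range 958 to 3003) in Tuft, 427 (range 311 to 544) in EEC and 10.4 (range 0 to 28.6) in SecPDG, although all gates excluded cells with the protein at the surface.

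Several genes called higher in Tuft reached the Tuft range or lay above it in another cell type. Atoh1 had a mean of 7054 (range 5642 to 9208) in SecPDG and 3691 (range 2522 to 5347) in Tuft, without overlap, and Rgs16 572 (range 445 to 642) and 333 (range 235 to 437), also without overlap. Kcnma1 was at 3585 (range 2979 to 4646) in SecPDG and 2570 (range 1729 to 2966) in Tuft, and Kcnk6 at 2946 (range 2351 to 4006) and 2278 (range 1400 to 3083). For Il4ra the means were 1525 (range 1100 to 2160) and 1481 (range 1299 to 1628), for Gna14 508 (range 379 to 682) and 492 (range 367 to 703), and for Ffar2 1088 (range 781 to 1277) and 1189 (range 507 to 1789). Cdh23 was at 497 (range 231 to 763) in EEC, 399 (range 111 to 597) in enterocytes and 215 (range 46 to 321) in Tuft. Muc2 was at 636058 (range 357960 to 1142500) in SecPDG and 675092 (range 377860 to 970200) in Tuft, so that the ranges overlap, and Kit at 7199 (range 6069 to 9232) and 9354 (range 6619 to 10787). The cell cycle inhibitor gene Cdkn1c was at 1398 (range 828 to 1948) in Tuft, 726 (range 604 to 848) in EEC and 156 (range 124 to 206) in SecPDG. Lgr5 had a mean of 2599 (range 2006 to 3197) in Stem and 1118 (range 787 to 1651) in Tuft, and both lay above AbsPro at 608 (range 368 to 890.0) and SecPDG at 527 (range 441 to 718), with the lowest Tuft library inside the AbsPro range. Hpgds was at 270.0 (range 168 to 391) in Stem, 94.2 (range 35.6 to 190.0) in AbsPro and 1387 (range 750.0 to 2604) in Tuft.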
